A study of Mus musculus with 6 samples.

Results

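The genes described here are 8 genes of cholesterol synthesis and its control by SREBP2: the enzymes Hmgcs1, Mvd, Idi1, Sqle, Lss and Sc5d, the transcription factor gene Srebf2 and the SREBP inhibitor gene Insig1. They were chosen by name, and all 8 were measured among 18193 genes, by 19 of the 34945 probe sets that name 1 gene. Each gene was represented by its brightest probe set, judged by the mean of the 6 arrays, and the others are given beside it. Affymetrix arrays measured RNA from a duct cell line of the mouse pancreas, mPAC L20, in 2 groups of 3 independent experiments that carry the replicate numbers 1 to 3. In both groups an adenovirus with the CMV promoter drove Neurog3, which encodes the factor that sets pancreatic progenitors on the endocrine path. A second adenovirus, added first for 4 h, carried a scrambled hairpin in shControl and, in shAtoh8, 1 hairpin against the RNA of Atoh8, which encodes a helix-loop-helix factor. For all 6 arrays cells were seeded at 250000 per well, with 10% serum. The multiplicity of infection was 40 per virus, the Neurog3 virus stayed on for 1.5 h, and cells were then cultured for 44 to 46 h. No array lacked either virus, so all values are differences between hairpins in infected cells that express Neurog3.

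Cells make cholesterol from acetyl-CoA through mevalonate, isopentenyl and farnesyl units, squalene and lanosterol. SREBP2, the product of Srebf2, is held in the endoplasmic reticulum by Scap and the Insig proteins while sterols are plentiful. When sterols fall, the Scap and SREBP2 complex moves to the Golgi, where the proteases encoded by Mbtps1 and Mbtps2 release the active factor, which switches on the enzyme genes, Srebf2 itself and Insig1. The array reads RNA alone and says nothing of the cleavage of SREBP2 or of sterol content, and in such bulk samples fewer cells with an RNA cannot be told apart from less of that RNA per cell.

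Medians of the 6 arrays ranged from 5.49 to 5.56 in log2 signal. Over all genes 1.15% passed limma's test at an adjusted p under 0.05 (0.638% lower and 0.517% higher in shAtoh8), and 4.67% passed with the replicate number as a block (2.75% lower and 1.92% higher). The Atoh8 probe set, the check of the hairpin, gave 8.75, 8.29 and 7.52 in shControl (replicates 1, 2 and 3) against 7.83, 7.90 and 7.37 in shAtoh8. It was lower in each pair, a log2 fold change of -0.49 ± 0.30 (SE) that did not pass (limma adjusted p = 0.573, and 0.157 with the block). Neurog3 had -0.57 ± 0.48 on its brighter probe set (0.706, and 0.0330 with the block) and 0.18 ± 0.17 on the other (0.751). The groups are called by their labels throughout. Of 7 duct markers measured, Krt19 read 13.25 to 13.55, Krt8 13.79 to 13.94 and Sox9 9.16 to 9.48 over all 6 arrays. Of the 7, 6 had a negative fold change, against 46.9% of all genes, and 5 were lower in shAtoh8 in every pair, against 21.5%. Of these markers 0 passed (2 lower at an unadjusted p under 0.05, Krt7 and Epcam, against 8.82% of all genes). The keratin gene Krt7 read 10.69, 10.88 and 10.77 in shControl and 10.44, 10.62 and 10.52 in shAtoh8, so that its groups were apart (-0.25 ± 0.09, adjusted p = 0.263). Epcam, an epithelial adhesion gene, read 7.93 to 8.11 in shControl and 6.90 to 7.72 in shAtoh8 (-0.73 ± 0.19, adjusted p = 0.145, and 0.0463 with the block). A second, dimmer probe set of Epcam gave 0.05 ± 0.10 with overlapping groups (adjusted p = 0.913, and 0.881 with the block). Of the markers of other cell types, Ptprc of leukocytes (3.52 to 3.81), Pecam1 of endothelium (3.53 to 3.86) and Col1a1 of fibroblasts (4.71 to 5.05) stood below the array medians in both groups. Other markers of these lists stood above them, with Lyz2 at 6.00 to 7.07, Cd68 at 6.12 to 7.33 and Cd3e at 6.03 to 6.34 for leukocytes and Pdgfra at 6.69 to 7.07 for fibroblasts.

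The promoters are shown for Hmgcs1, which passed the test below, for Srebf2, which encodes the factor itself, and for Idi1, whose groups overlapped. Each is the 250 bases before the gene's start, from RefSeq on GRCm38.p6, 5′ to 3′ on the gene's strand, here the plus strand, and capitals mark TCACCCCA, the core of a sterol regulatory element, and CCAAT, the NF-Y box, which reads ATTGG on the other strand. The windows are chr13:119690101-119690350 for Hmgcs1, chr15:82147019-82147268 for Srebf2 and chr13:8885356-8885605 for Idi1.
Hmgcs1: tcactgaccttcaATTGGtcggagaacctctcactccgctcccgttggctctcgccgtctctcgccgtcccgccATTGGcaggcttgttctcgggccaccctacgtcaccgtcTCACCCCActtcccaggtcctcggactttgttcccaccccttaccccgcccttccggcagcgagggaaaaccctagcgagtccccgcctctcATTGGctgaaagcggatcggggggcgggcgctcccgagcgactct
Srebf2: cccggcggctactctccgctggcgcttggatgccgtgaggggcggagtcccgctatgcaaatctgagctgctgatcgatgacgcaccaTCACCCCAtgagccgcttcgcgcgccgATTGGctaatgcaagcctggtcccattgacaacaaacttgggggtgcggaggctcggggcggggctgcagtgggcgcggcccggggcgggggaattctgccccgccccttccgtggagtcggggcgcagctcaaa
Idi1: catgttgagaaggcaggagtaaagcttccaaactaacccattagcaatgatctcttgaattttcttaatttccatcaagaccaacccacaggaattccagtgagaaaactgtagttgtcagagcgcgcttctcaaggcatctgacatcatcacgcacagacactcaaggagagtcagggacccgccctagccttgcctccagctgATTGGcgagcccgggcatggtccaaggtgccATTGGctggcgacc
Hmgcs1 and Srebf2 each held 1 match to TCACCCCA, starting 137 and 162 bases before the start, and in Idi1 these letters were not found. Nor were they found in Mvd and Lss, whose groups did not overlap. Promoter windows were matched for 7 of the 8 genes (Hmgcs1, Mvd, Idi1, Lss, Sc5d, Srebf2 and Insig1), and 2 of the 7 held TCACCCCA on either strand, against 1.34% of 32851 promoter windows of the same length. CCAAT was found in 7 of 7, against 33.8% of all windows, with 3 matches in Hmgcs1 and 1 in Srebf2. GGGCGG, the GC box that Sp1 binds, was found in 7 of 7 against 32.7%, and the E-box CANNTG, the general target of basic helix-loop-helix factors, in 6 of 7 against 66.2%. Of 11 other enzymes of the pathway 0 held TCACCCCA, 10 CCAAT, 10 GGGCGG and 4 CANNTG. No match of TCACCCCA overlapped another of these motifs, while the Hmgcs1 E-box overlapped a CCAAT match. These matches describe the letters of the windows and are no measure of binding. Only the exact letters within these 250 bases were searched, so a gene without a match may hold a variant of the element or one elsewhere.

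Hmgcs1 was the 1 member that passed the test: its RNA was 1.76-fold lower in shAtoh8. Hmgcs1 encodes the cytosolic HMG-CoA synthase, an early enzyme of the mevalonate pathway. On its brightest probe set shControl replicates 1, 2 and 3 stood at 12.25, 12.08 and 12.48, and those of shAtoh8 at 11.52, 11.48 and 11.37. The lowest shControl array stood above the highest shAtoh8 array, and the 3 shAtoh8 arrays lay closer together than the 3 shControl arrays (SD 0.0791 against 0.201, n = 3 each). The log2 fold change was -0.82 ± 0.12 (SE), with a limma adjusted p of 0.0378 over 45037 probe sets. Over all genes 0.638% passed lower, and among the 116 that did, Hmgcs1 was number 63 by size of the fold change. Within replicate numbers 1, 2 and 3 the difference was -0.73, -0.60 and -1.11.

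The other probe sets of Hmgcs1 gave the same direction. A total of 4 of its 5 probe sets passed lower, against 0.495% of all probe sets, and 4 with the block, against 2.06%. The largest change was on a set that read 10.42, 10.32 and 10.79 in shControl and 9.61, 9.30 and 9.59 in shAtoh8 (-1.01 ± 0.15 SE, adjusted p = 0.0391), and the other 2 passing sets gave -0.64 and -0.76. The fifth set was dim and variable: it read 4.92, 5.32 and 6.03 in shControl and 4.58, 4.49 and 5.54 in shAtoh8, with overlapping groups (-0.56 ± 0.35, adjusted p = 0.585). Probe sets of 1 gene read the same RNA samples and are no separate replicates. The call needed all 6 arrays: with any 1 array left out the fold change stayed between -0.91 (without shControl replicate 2) and -0.71 (without shControl replicate 3), but the adjusted p was 0.0671 to 0.110.

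**Figure D1:**
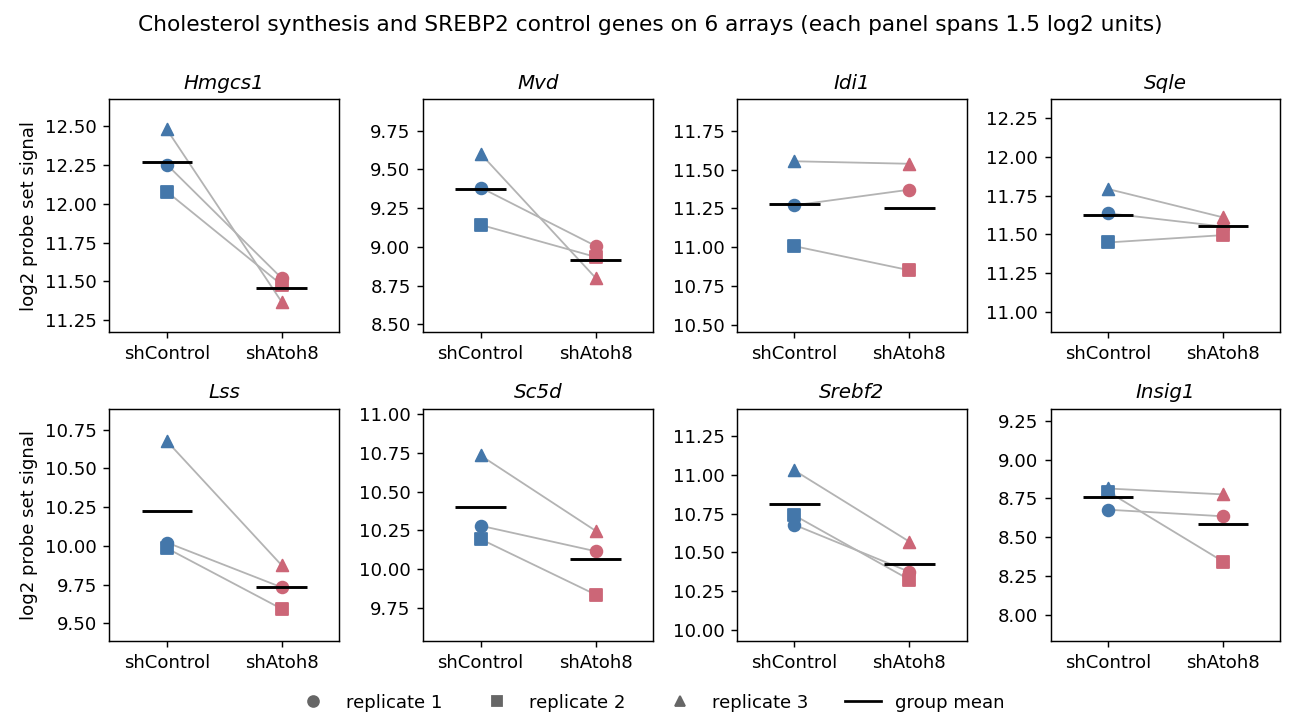
Log2 signal of the brightest probe set of each of the 8 genes (vertical axis, each panel spanning 1.5 log2 units) in shControl and shAtoh8; symbols mark the replicate numbers, grey lines join arrays of the same number and black bars are the means of 3 arrays. The groups of Hmgcs1, Mvd, Lss and Srebf2 do not overlap, and shControl replicate 3 is the highest shControl array in all 8 panels.

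The remaining enzymes among the members did not pass, and their values spread from near 0 to about the level of Mvd and Lss. Mvd encodes mevalonate diphosphate decarboxylase, the last enzyme before the isoprene units. It read 9.38, 9.14 and 9.60 in shControl and 9.01, 8.93 and 8.80 in shAtoh8. The groups did not touch, and all 3 pairs were lower in shAtoh8 (-0.38, -0.21 and -0.80). For Mvd the fold change was -0.46 ± 0.13 (SE; 95% interval -0.76 to -0.16, adjusted p = 0.163), and the second probe set of Mvd gave -0.40 ± 0.12 (0.208).

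Lss encodes lanosterol synthase, which closes the sterol rings. Its brightest probe set read 10.02, 9.98 and 10.68 in shControl and 9.73, 9.59 and 9.87 in shAtoh8. The groups were apart, though shControl replicate 3 stood well above the other shControl arrays and pair 3 had the largest difference (-0.29, -0.39 and -0.80). The fold change was -0.49 ± 0.19 (95% interval -0.94 to -0.05, adjusted p = 0.305, and 0.0866 with the replicate block). Without shControl replicate 3 it was -0.27 (adjusted p = 0.431). Another probe set gave -0.43 ± 0.13 with groups that did not overlap (0.195), and a dim one, at 5.22 to 5.36 on all arrays, gave 0.01 ± 0.08.

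Sc5d encodes the sterol desaturase that acts on lathosterol, near the end of the pathway. It read 10.28, 10.19 and 10.73 in shControl and 10.11, 9.84 and 10.25 in shAtoh8. The groups overlapped, since shAtoh8 replicate 3 stood above shControl replicate 2, while each pair was lower in shAtoh8 (-0.16, -0.36 and -0.49). This gave a fold change of -0.34 ± 0.17 (95% interval -0.73 to 0.06, adjusted p = 0.458). With the replicate block the interval was -0.57 to -0.11 (adjusted p = 0.127), so that Sc5d did not pass there either. The other 2 probe sets gave -0.19 and -0.16. Without shControl replicate 3 the value of the brightest set was -0.17.

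Idi1 and Sqle had the smallest differences. Idi1 encodes the isomerase that turns isopentenyl diphosphate into dimethylallyl diphosphate. It read 11.27, 11.01 and 11.55 in shControl and 11.37, 10.85 and 11.54 in shAtoh8. Arrays of the same number lay closer to each other than to the arrays of their own group, with pair differences of 0.10, -0.16 and -0.02. The fold change was -0.02 ± 0.21 (95% interval -0.51 to 0.46, adjusted p = 0.981). With the replicate block the interval was -0.24 to 0.19 (adjusted p = 0.935), and the other probe set gave 0.03 ± 0.21 without the block. Leaving out single arrays moved the brightest set from -0.17 to 0.18. Sqle encodes squalene epoxidase, the first oxygen-using step of sterol synthesis and a rate-controlling one. It read 11.64, 11.45 and 11.79 in shControl and 11.55, 11.49 and 11.61 in shAtoh8. The groups overlapped and replicate 2 was slightly higher in shAtoh8 (-0.09, 0.05 and -0.18). For Sqle the fold change was -0.07 ± 0.11 (95% interval -0.32 to 0.17, adjusted p = 0.854). None of these intervals of Idi1 and Sqle holds the -0.82 measured for Hmgcs1.

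The difference between Hmgcs1 and these genes was set out per array, a comparison chosen after the values were seen. In shControl log2 Hmgcs1 minus log2 Sqle came to 0.62, 0.63 and 0.69, and in shAtoh8 to -0.03, -0.02 and -0.24. The group means differed by -0.74, without overlap. Hmgcs1 minus Idi1 came to 0.98, 1.07 and 0.93 in shControl, against 0.15, 0.63 and -0.17 in shAtoh8, a difference of -0.79, also without overlap. Since Sqle and Idi1 were taken as the members with the smallest differences, this is a description, with no test. Only the change in these ratios between groups has meaning, since probe sets differ in brightness for the same amount of RNA.

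**Figure D2:**
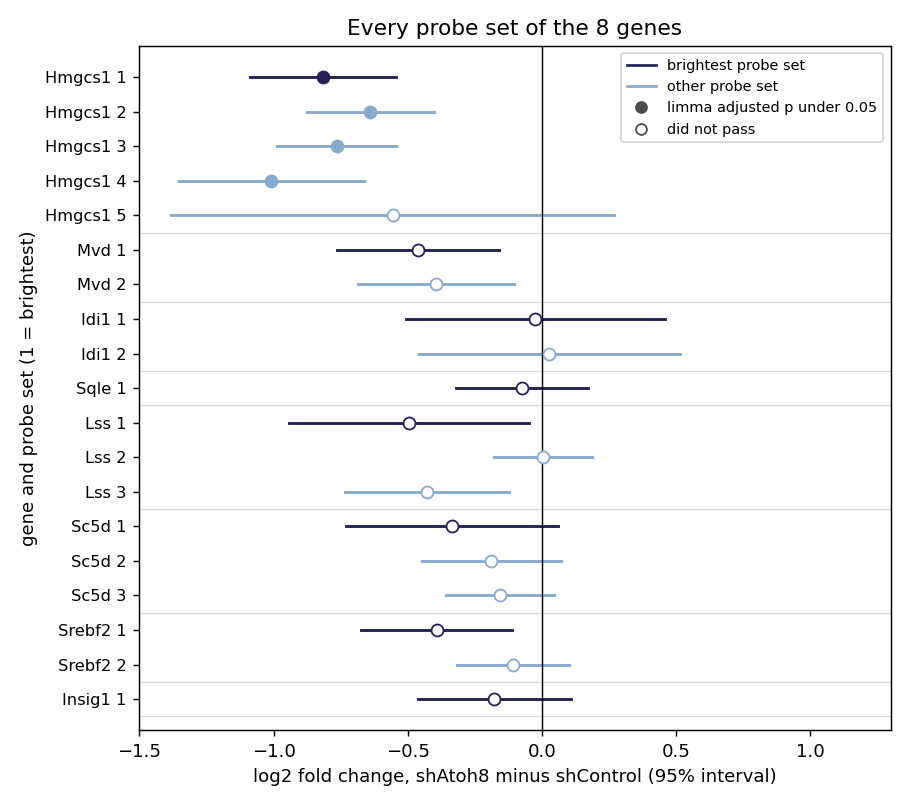
Log2 fold change (shAtoh8 minus shControl, horizontal axis) of each of the 19 probe sets of the 8 genes, with limma's 95% interval; dark marks are the brightest set of a gene and filled circles passed at an adjusted p under 0.05. The 4 filled circles belong to Hmgcs1, and 17 of the 19 values are negative.

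The control genes were lower in each pair, and neither passed. Srebf2 read 10.68, 10.74 and 11.03 in shControl and 10.37, 10.32 and 10.57 in shAtoh8 on its brightest probe set. The groups were apart, by a narrow margin between shControl replicate 1 and shAtoh8 replicate 3, and the pair differences were alike (-0.30, -0.41 and -0.46). The fold change was -0.39 ± 0.12 (SE; 95% interval -0.67 to -0.11, adjusted p = 0.197, and 0.0639 with the block). The second probe set, almost as bright, gave -0.11 ± 0.09 (95% interval -0.32 to 0.10, adjusted p = 0.704) with overlapping groups, so the size for Srebf2 rests on the probe set. Without shControl replicate 3 that second set became the brightest and gave -0.07, while the first set gave -0.29 there.

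Insig1 encodes a sterol-sensing anchor that keeps the Scap and SREBP complex in the endoplasmic reticulum, and is itself a known SREBP target. The 1 probe set for Insig1 read 8.68, 8.79 and 8.81 in shControl and 8.63, 8.34 and 8.78 in shAtoh8. The groups overlapped and shAtoh8 replicate 2 alone stood clearly lower, so that the pair differences were -0.04, -0.45 and -0.04. The fold change was -0.18 ± 0.12 (95% interval -0.46 to 0.11, adjusted p = 0.628), and -0.06 without shAtoh8 replicate 2. That array also had the lowest mean of the hybridisation spikes (10.28, against 10.61 to 10.85 on the others) and the largest 3′ minus 5′ difference of actin (0.354, with 0.107 to 0.202 elsewhere), and the part of this in the Insig1 value was not tested.

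As a group, 8 of 8 members were lower in shAtoh8 by sign, and their median log2 fold change was -0.36 (range -0.82 to -0.02), where 46.9% of all genes were negative with a median of 0.01. The groups did not overlap for 4 members (Hmgcs1, Mvd, Lss and Srebf2), each lower in shAtoh8, against 11.4% of all genes. In 6 of 8 members every pair was lower in shAtoh8, against 21.5% of all genes. With the replicate block 1 of 8 passed lower (Hmgcs1, adjusted p = 0.0308), where 2.75% of all genes did. The median difference of the 8 was -0.23, -0.37 and -0.47 within replicate numbers 1, 2 and 3. For the Atoh8 probe set these differences were -0.92, -0.39 and -0.15, in the opposite order, and any link was not tested. The median was -0.16 without shControl replicate 3, and -0.24 when the probe sets of each gene were averaged. The genes were chosen with results of these data known, so these counts describe the 8 and test nothing.

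The members also varied together between experiments within a group. In shControl, replicate 3 was the highest array for 8 of 8 members, against 31.8% of all genes, and replicate 2 the lowest for 6. In shAtoh8, replicate 2 was the lowest for 6 of 8, against 30.1% of all genes, and replicate 3 the highest for 6. Replicate 2 of shAtoh8 is the array with the low hybridisation spikes and the large 3′ minus 5′ difference of actin given above, whose part in these low values was not tested. Without it the members' median was -0.28. The members whose shAtoh8 replicate 3 was not the highest array of that group were Hmgcs1 and Mvd, where it was the lowest. For Hmgcs1 and Mvd the arrays of shAtoh8 thus did not follow the order of shControl. By contrast, Idi1, Sqle, Sc5d and Lss kept replicate 3 highest and replicate 2 lowest in both groups. These orders are those of the brightest probe sets. On the other Hmgcs1 sets shAtoh8 replicate 2 was the lowest of its group (11.22, 11.40, 9.30 and 4.49), with replicate 3 at 11.44, 11.41, 9.59 and 5.54. Averaged over the 8 genes, the log2 values of shControl were 10.52, 10.42 and 10.83 and those of shAtoh8 10.29, 10.11 and 10.35, so that each shAtoh8 array lay below each shControl array.

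The rest of the pathway was read from a list of 15 further enzymes, of which 12 were measured, and none of these passed the test. The median fold change was -0.14 (range -0.39 to 0.30), and 8 of 12 were negative, against 46.9% of all genes. Of the 12, 0 passed limma without or with the block (3 lower at an unadjusted p under 0.05, against 8.82% of all genes). The 2 with the smallest p were Lbr, a sterol reductase of the inner nuclear membrane that also binds lamin, and Fdps, farnesyl diphosphate synthase. Lbr read 11.03, 10.82 and 11.20 in shControl and 10.64, 10.50 and 10.72 in shAtoh8, apart without overlap (-0.39 ± 0.12 SE, adjusted p = 0.186, and 0.0639 with the block). Fdps read 12.57, 12.44 and 12.75 against 12.35, 12.26 and 12.31, again apart (-0.28 ± 0.10, 0.262). Of the early steps between Hmgcs1 and Mvd, the mevalonate kinase Mvk had -0.13 ± 0.10 and the phosphomevalonate kinase Pmvk -0.23 ± 0.13, and neither passed. Tm7sf2, the sterol reductase that shares its reaction with Lbr, had the most positive value (0.30 ± 0.20, adjusted p = 0.613), opposite in sign to Lbr. As among the members, replicate 3 was the highest shControl array for 9 of these 12 enzymes, against 31.8% of all genes. The remaining 3 enzymes of the list were not analysed here.

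**Figure D3:**
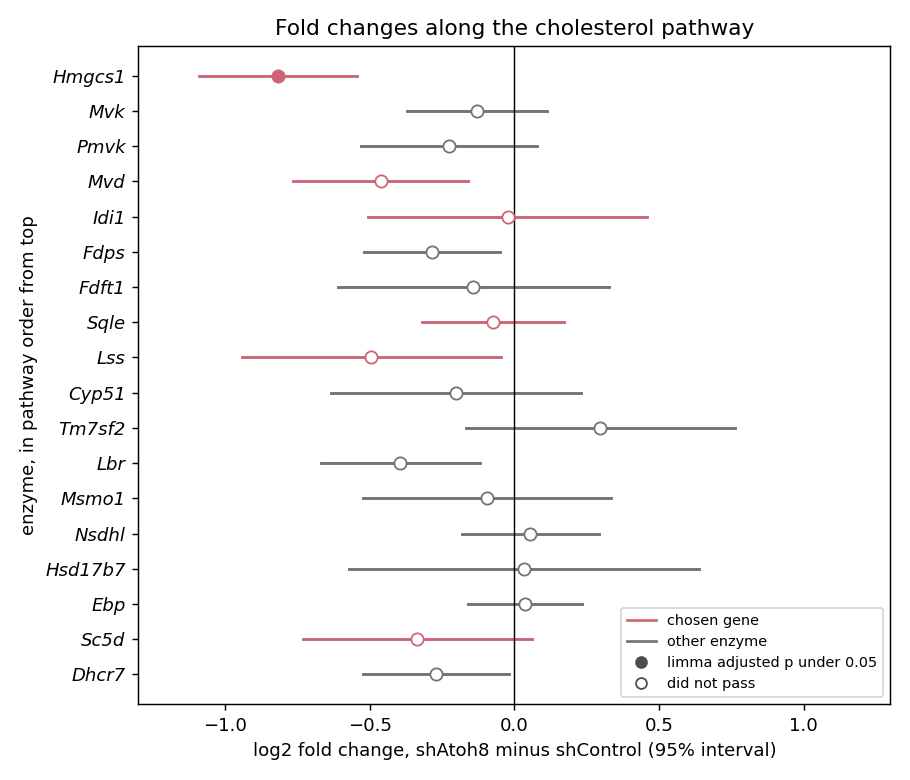
Log2 fold change (shAtoh8 minus shControl, horizontal axis) with limma's 95% interval for 18 measured enzymes in the order of the pathway from top to bottom; red marks are members and grey marks other enzymes. Hmgcs1 at -0.82 is the 1 filled circle (adjusted p under 0.05), and the intervals of Mvd, Lss, Lbr, Fdps and Dhcr7 also lie below 0.

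Genes that move or sense SREBP2 gave no common direction. Of 8 measured genes of SREBP processing and sterol sensing, 3 were negative and 5 positive, with a median of 0.14. Scap, the escort, had 0.12 ± 0.09 (SE, adjusted p = 0.683), Srebf1, which encodes the lipogenic SREBP1, -0.04 ± 0.11 (0.925), and Insig2 -0.19 ± 0.12 (0.573). Mbtps2, the second SREBP protease, had 0.24 ± 0.10 (0.321), its shAtoh8 arrays at 9.57 to 9.71 above the shControl arrays at 9.30 to 9.56, a separation that 12.6% of all genes showed in that direction. Erlin2, a protein of the endoplasmic reticulum membrane that takes part in protein degradation there, read 8.93, 8.84 and 8.61 in shControl and 8.29, 8.39 and 7.79 in shAtoh8. Its groups were apart, and it passed lower with the replicate block alone (-0.63 ± 0.17, adjusted p = 0.150 without and 0.0361 with it).

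Cholesterol uptake and transport genes (8 measured, median 0.05) and efflux and storage genes (6 measured, median -0.01) held 0 genes that passed limma without or with the block (3 and 0 at an unadjusted p under 0.05). The 3 were Scarb1 and Stard4, both lower, and Lrpap1, higher, where 8.82% of all genes were lower and 8.72% higher by that measure. Scarb1, the HDL receptor, read 8.63, 8.53 and 8.69 in shControl and 8.39, 8.26 and 8.36 in shAtoh8 (-0.28 ± 0.08 SE, adjusted p = 0.189), and Lrpap1, a chaperone of lipoprotein receptors, had 0.28 ± 0.09 (0.220). Abca1, a cholesterol exporter, had -0.45 ± 0.27 with overlapping groups (0.565), and Cyp27a1, a sterol hydroxylase, 0.15 ± 0.07 (0.450). Other genes of these lists were not analysed here.

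Among 10 fatty acid genes of the SREBP1 type all 10 had negative values, against 46.9% of all genes, with a median of -0.16. Acss2, an acetyl-CoA synthetase that is a target of SREBPs, read 8.25, 8.14 and 8.77 in shControl and 7.66, 7.64 and 7.78 in shAtoh8. Its groups were apart and it passed lower with the block (-0.69 ± 0.16 SE, adjusted p = 0.114 without and 0.0397 with it). The fatty acid synthase Fasn had -0.07 ± 0.13 (0.898) and the desaturase Scd2 -0.17 ± 0.08 (0.449). Dimmer probe sets of Scd2 gave larger values, -0.32 ± 0.09 (0.161) and -0.52 ± 0.19 (0.286), with groups apart, and neither passed. In the branch that uses isoprenoids for other products, 6 genes were measured, with a median of 0.02. Coq2, which attaches the side chain of coenzyme Q, read 8.74, 8.63 and 8.63 in shControl and 7.93, 8.30 and 7.85 in shAtoh8, and passed lower with the block (-0.64 ± 0.13, adjusted p = 0.0791 without and 0.0484 with it). Pggt1b, a subunit of a geranylgeranyl transferase, had 0.51 ± 0.16 (0.214, and 0.0639 with the block).

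**Figure D4:**
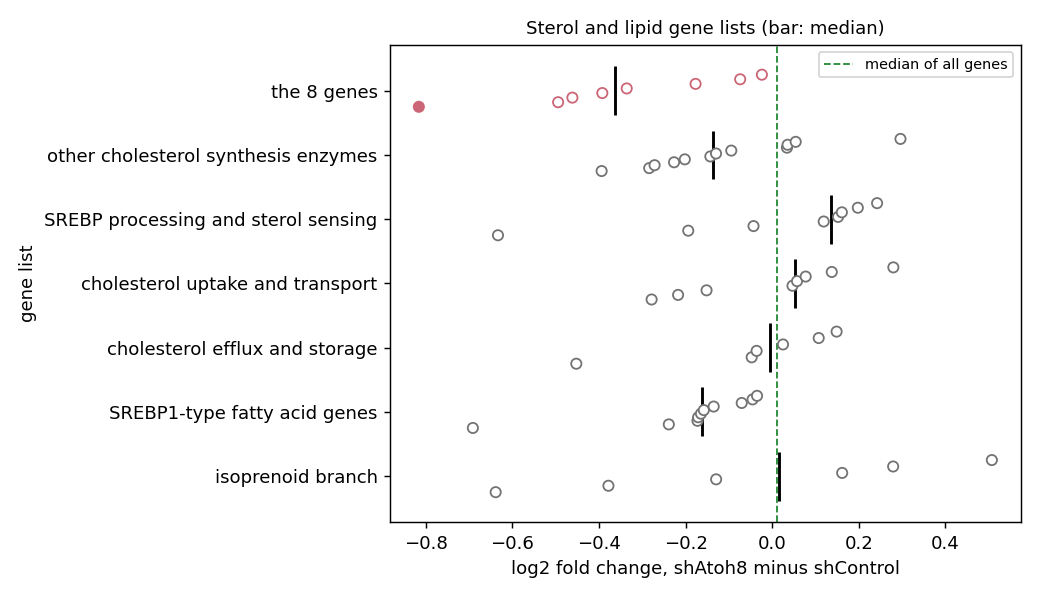
Log2 fold change (shAtoh8 minus shControl, horizontal axis) of each measured gene, 1 row per list; black bars are list medians, the dashed line is the median of all genes (0.01), and filled circles passed at a limma adjusted p under 0.05 without the block. The median is -0.36 for the 8 genes, -0.14 for other synthesis enzymes and -0.16 for fatty acid genes, and the other 4 lists drawn have medians from -0.01 to 0.14.

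The marker lists of other cell types were read beside these results. The mean log2 level of 5 leukocyte markers was 5.25 to 5.38 in shControl and 5.43 to 5.50 in shAtoh8, and 1 of the 5, the lysozyme gene Lyz2, rose, against 0.517% of all genes (6.32, 6.14 and 6.00 against 7.07, 6.90 and 6.74; 0.75 ± 0.12 SE, adjusted p = 0.0499). Its call was lost in 11 of 18 alternatives, among them median centring (0.0594) and each array left out (0.0848 to 0.186). The other leukocyte markers did not pass and went both ways, so Lyz2 was the largest change behind the list mean. Cd68 was lower in each pair (-0.36 ± 0.25, adjusted p = 0.622), while Ptprc, Cd3e and Itgam had 0.11, 0.07 and 0.18. The mean of 5 acinar markers was 5.74 to 5.85 against 5.90 to 5.94, that of 6 fibroblast markers 4.89 to 4.98 against 4.89 to 4.91, and that of 4 endothelial markers 4.40 to 4.51 against 4.39 to 4.56. The mean of the 7 duct markers was 11.55 to 11.64 in shControl and 11.35 to 11.46 in shAtoh8. Epcam was the largest change in that mean, at -0.73 on its brighter probe set and 0.05 on the other. Krt7, Cdh1, Krt18, Sox9 and Krt19 had -0.25, -0.14, -0.07, -0.05 and -0.03, and Krt8 had 0.06. No gene of the acinar, fibroblast or endothelial list passed limma without or with the block (1, 0 and 0 at an unadjusted p under 0.05, the 1 being the elastase gene Cela1, 0.37 ± 0.14, in a direction in which 8.72% of all genes passed unadjusted). The part of these shifts in the values of the sterol genes was not tested.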

How the data were processed

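Values as deposited are log2 signals, 1 per probe set and array, on 6 Affymetrix arrays. The authors made them with RMA in the affy package, per the submitters' processing notes, with versions not given in the sources used here. RMA corrects background, quantile-normalises the arrays and combines each set's probes, so a shift of most genes one way would have been removed. Of 45101 probe sets 64 controls were left out, and the other 45037 all entered the fit, dim ones included: 34945 had 1 gene symbol in the platform annotation, 932 several and 9160 none, and only the first named a gene. Symbols checked through Entrez IDs against RefSeq (GRCm38.p6) changed in 0 cases.

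shAtoh8 was compared with shControl with lmFit and eBayes of limma 3.58.1 (R 4.3.3; 4 residual degrees of freedom), two-sided, adjusted by Benjamini-Hochberg over all 45037 probe sets at 0.05; ± SE is moderated. The fit was tested on simulated data with independent noise and no effect of the replicate number. Its outcome does not vouch for the calls made here. The number of arrays limits the precision. Replicate numbers were taken to pair the arrays, since deviations from the group means correlated at 0.407, 0.187 and 0.433 between arrays of the same number and at -0.351 to 0.0292 otherwise, and values from the blocked fit stand beside results that it bears on. The 8 genes and all lists were chosen with earlier results of these data known. Named are the 8 members, Atoh8 and Neurog3, in each list the genes that passed without or with the block, or else the 2 with the smallest p, and the 5 genes most like Hmgcs1; other genes of the lists were singled out after their values were seen. The alternatives covered the block, normalization, centring, brightness, variance model, array weights, choice of probe sets, threshold and each array or pair left out.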

Additional observations from a re-analysis of the deposited data

How the results depend on the processing

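The 8 genes kept their direction under 18 alternatives, except Idi1 and Sqle. Hmgcs1 ranged from -0.92 to -0.67 and kept its call in 10 of 18; the call was lost with each of the 6 arrays left out and with both arrays of number 1 (adjusted p = 0.135) or number 3 (0.135) left out under the replicate block. The other 7 members passed in none of the 18, with a lowest adjusted p of 0.0607 (Mvd, both arrays of number 2 left out with the block).

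The count of members that passed was 1, and 0 with any 1 array left out. In those fits 3 or 4 members had an unadjusted limma p under 0.05, as did 2586 to 2996 of all 18193 genes. With the block and both arrays of number 1 or 3 left out the count that passed was 0 and 0. Unadjusted it was 5 and 3 members there, beside 2993 and 2568 of all 18193 genes. Their median of -0.36 became -0.24 with probe sets averaged per gene and ranged from -0.44 to -0.16 with 1 array left out. The count of all genes that passed, 210, became 849 with the replicate block, 324 with the brighter probe sets alone, 339 with array weights, 459 with probe sets averaged per gene and 691 at a threshold of 0.1. It ranged from 0 (without shControl replicate 2, where 2642 had an unadjusted p under 0.05) to 115 with 1 array left out. With the block and both arrays of number 1, 2 or 3 left out it was 0, 962 and 0 (2993, 3928 and 2568 unadjusted). The count of other synthesis enzymes stayed at 0 in limma (1 to 4 at an unadjusted p under 0.05, beside 2568 to 4116 of all 18193 genes).

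Signs turned for Idi1 with array weights (0.074), with its probe sets averaged (0.0022), with both arrays of number 2 left out (0.042) and with 1 array left out (-0.17 to 0.18), and for Sqle with 1 array left out (-0.16 to 0.0098). They also turned for Cyp27a1 (-0.026) and Col1a1 (0.010) with probe sets averaged, Pecam1 with both arrays of number 1 left out (0.0014), Pdgfra with 1 array left out (-0.16 to 0.022), and Neurog3 with 1 array left out (-0.99 to 0.27) or both arrays of number 1 (0.15). Where probe sets were averaged, the other probe set had the opposite sign for Idi1 (0.03), Cyp27a1 (-0.20) and Col1a1 (0.12), which turned the average. Another probe set of Neurog3, with a positive value, was the brightest in the fits where its sign turned. The cause of the other turns was not tested. With the block, calls were gained by Erlin2, Acss2, Coq2, Epcam and Neurog3 (adjusted p = 0.0330), and no other call of a named gene changed.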

Other observations

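The 5 genes whose log2 values over the 6 arrays correlated most closely with those of Hmgcs1 were Cebpg, a basic leucine zipper transcription factor (Pearson r = 0.998), Ncs1, a neuronal calcium sensor (0.996), Fkbp9 (0.995), Gtdc1 (0.995) and Polg, the mitochondrial DNA polymerase (0.993). Of 4864 genes outside the 8 with an SD of at least 0.2 over the arrays, 486 had a correlation above 0.9, and the 6 points share the contrast between 2 groups, so the values describe the arrays and carry no p. Cebpg (-0.70, limma adjusted p = 0.0387) and Ncs1 (-0.98, 0.0378) fell, though each call was lost in 8 of 18 alternatives, among them each array left out (adjusted p = 0.0672 to 0.124 and 0.0644 to 0.120), and Fkbp9 (-0.36, 0.0963), Gtdc1 (-0.51, 0.0743) and Polg (-0.63, 0.0675) did not pass.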
